A study of Mus musculus with 6 samples.

Results

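Satellite cell and myogenic factors were taken here as 10 mouse genes, chosen by symbol: Pax7, Pax3, Myf5, Myod1, Myog, Myf6, Cdh15, Megf10, Chrna1 and Chrng. Each symbol matched 1 of the 38561 Ensembl gene IDs in the count tables. All 6 libraries came from mice carrying NG2-Cre and floxed p53 alleles (NG2-Cre;p53flox/flox) on a mixed background, and their ages were not given in the labels. In this model Cre is driven by the promoter of Cspg4, which encodes the NG2 proteoglycan of pericytes, and deletes a floxed part of Trp53, so the NG2 cells carried the same alleles as the tumours. There were 3 groups of 2 libraries. The osteosarcomas were from the right tibia (replicate 1) and the lumbar spine (replicate 2), both soft tissue sarcomas were subcutaneous, and the NG2 cells were taken from skeletal muscle by sorting on an NG2 antibody. The comparisons address how far the tumours and the sorted NG2 cells of muscle, labelled as perivascular, differed in the muscle stem cell and myogenic programme. The labels did not say whether the 2 libraries of a group came from separate animals, so p-values measure only the spread between these samples.

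Skeletal muscle grows and repairs through satellite cells, stem cells that lie between the muscle fibre and its basal lamina and are marked by the paired-box factor Pax7. Pax3 does similar work in the embryo and is also a neural crest factor. Activated satellite cells turn on the myogenic regulatory factors, a family of basic helix-loop-helix proteins: Myf5 and Myod1 commit a cell to the muscle lineage, Myog drives its differentiation, and Myf6 (MRF4) acts late and in mature fibres. These factors pair with E proteins and bind the E-box, CANNTG, in the promoters of muscle genes. Cdh15 encodes M-cadherin, an adhesion protein of satellite cells and myoblasts, and Megf10 a transmembrane receptor with EGF repeats that regulates the proliferation of satellite cells. Chrna1 encodes the alpha subunit of the muscle acetylcholine receptor, and Chrng the fetal gamma subunit, which Chrne (epsilon) replaces after birth.

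Promoter windows of 300 bases, from 250 before to 50 after the RefSeq transcript start (GRCm38.p6), were found for 6 of the 10 genes: Pax7, Myf5, Myog, Cdh15, Chrna1 and Chrng. Of all 32851 windows in the table, 72.3% held at least 1 CANNTG, with a median of 1. The form CAGCTG, which is also a CANNTG, was in 16.3%. Both motifs read the same on the 2 strands. The 4 windows below are shown for the 2 receptor genes and for Myog and Cdh15, which both had high counts in the spine osteosarcoma, with each E-box in capitals. The Chrna1 window (chr2:73580289-73580588, minus strand) held 3 E-boxes, CAGCTG at -92, CAGGTG at -73 and CAGCTG at -44, where -1 is the base before the start and the position is that of the first base. At least 3 CANNTG were in 17.6% of windows and at least 2 CAGCTG in 1.90%. The Chrng window (chr1:87205561-87205860, plus strand) had CAGCTG at -155 and -132 and CACATG at -75, the same numbers of each motif as Chrna1. The Myog window (chr1:134289754-134290053, plus strand) held CACATG at -138 and CAGTTG at -12; 39.6% of windows held at least 2 CANNTG. The Cdh15 window (chr8:122848124-122848423, plus strand) held 4, CATATG at -236, CATGTG at -135, CACGTG at -32 and CACTTG at -2, and 6.49% of windows held at least as many. No CANNTG was in the Pax7 or Myf5 window. The Pax7, Cdh15 and Chrng windows lie inside the genes as annotated in GENCODE M21 (positions below), downstream of the annotated gene start. Motif positions there refer to the RefSeq start alone. These matches describe letters in the windows and are not binding data.
Chrna1: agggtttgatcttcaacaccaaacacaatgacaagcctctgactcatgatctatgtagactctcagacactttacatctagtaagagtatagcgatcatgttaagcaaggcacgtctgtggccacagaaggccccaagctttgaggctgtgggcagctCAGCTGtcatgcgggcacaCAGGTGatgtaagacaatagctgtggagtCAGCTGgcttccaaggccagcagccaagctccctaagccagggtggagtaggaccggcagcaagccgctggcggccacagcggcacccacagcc
Chrng: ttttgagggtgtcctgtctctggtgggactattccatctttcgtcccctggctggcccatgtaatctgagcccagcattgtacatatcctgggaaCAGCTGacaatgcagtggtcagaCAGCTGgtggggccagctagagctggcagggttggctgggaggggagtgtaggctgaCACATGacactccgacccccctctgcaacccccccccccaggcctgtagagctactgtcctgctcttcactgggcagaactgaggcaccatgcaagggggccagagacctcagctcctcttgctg
Myog: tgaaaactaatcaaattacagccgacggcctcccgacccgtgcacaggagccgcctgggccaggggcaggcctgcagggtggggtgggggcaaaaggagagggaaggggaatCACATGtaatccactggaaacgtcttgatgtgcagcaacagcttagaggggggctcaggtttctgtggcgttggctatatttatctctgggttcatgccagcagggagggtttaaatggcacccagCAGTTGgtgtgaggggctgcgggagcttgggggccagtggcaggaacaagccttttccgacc
Cdh15: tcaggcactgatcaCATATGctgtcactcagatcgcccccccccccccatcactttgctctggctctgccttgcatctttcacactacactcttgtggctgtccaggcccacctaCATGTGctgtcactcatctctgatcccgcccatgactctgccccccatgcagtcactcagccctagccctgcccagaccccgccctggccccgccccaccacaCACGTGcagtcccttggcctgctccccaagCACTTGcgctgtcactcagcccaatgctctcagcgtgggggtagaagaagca

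By the GENCODE M21 annotation of GRCm38, the genes lie as follows. Pax7 (ENSMUSG00000028736) is at chr4:139737062-139833528 and Pax3 (ENSMUSG00000004872) at chr1:78101267-78197134, both on the minus strand. Myf5 (ENSMUSG00000000435, chr10:107482908-107486134) and Myf6 (ENSMUSG00000035923, chr10:107492853-107494737) are neighbours on the minus strand. On the plus strand are Myod1 (ENSMUSG00000009471, chr7:46376474-46379099), Myog (ENSMUSG00000026459, chr1:134289989-134292548), Cdh15 (ENSMUSG00000031962, chr8:122847966-122867397) and Megf10 (ENSMUSG00000024593, chr18:57133090-57297467). Chrna1 (ENSMUSG00000027107) is at chr2:73563215-73580338 on the minus strand and Chrng (ENSMUSG00000026253) at chr1:87204657-87212694 on the plus strand. Counts are over exons. The only annotated gene that overlapped any of the 10 was Gm20388, on the same strand as Cdh15, and it held 0 counts in all 6 libraries.

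Reads counted on genes numbered 52056569 and 28107779 in osteosarcoma, 58126832 and 27693585 in soft tissue sarcoma, and 39453073 and 44622315 in NG2 cells. Levels are given in CPM, read counts scaled to library size by TMM, and a gene was called where edgeR's quasi-likelihood test gave a Benjamini-Hochberg adjusted p under 0.05 over the 19024 genes tested. Trp53, the floxed gene, was at 24.3 and 32.6 CPM in osteosarcoma, 31.2 and 27.3 CPM in soft tissue sarcoma and 101 and 82.3 CPM in NG2 cells; the count also covers exons that Cre does not delete, which makes it a weak check of the labels. Cspg4, the gene of the sorted antigen, was at 118 and 37.7 CPM in osteosarcoma, 188 and 88.7 CPM in soft tissue sarcoma and 38.6 and 30.65 CPM in NG2 cells. The summed level of 10 leukocyte markers was 242 and 462 CPM in osteosarcoma, 603 and 533 CPM in soft tissue sarcoma, and 5393 and 4509 CPM in NG2 cells. The summed level of 10 pericyte and mural markers was 611 and 1701, 1059 and 707, and 1131 and 1796 CPM in the same order. The NG2 libraries thus carried transcripts of several cell types. Flow cell lanes, read from the names of the tables, differed between the groups and not within them, so lane and group cannot be told apart.

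The 10 genes did not move as a block. Transcripts of the early factors, Pax7, Myf5 and Myod1, were in both NG2 cell libraries, at no more than 8.69 CPM. Pax7 was at 0 in all 4 tumours, while Myod1 was highest in the osteosarcoma of the lumbar spine, at 2.13 CPM. The later factors Myog and Myf6 were highest in the same library, at 32.0 and 2.56 CPM. Cdh15 was at nearly the same level in both osteosarcomas and at 0 in both soft tissue sarcomas, while Chrna1 was highest in both soft tissue sarcomas. In osteosarcoma against NG2 cells, 3 of the 8 genes that passed the filter on low counts were called, 2 higher (Cdh15 and Chrna1) and 1 lower (Pax7). Over all tested genes, 21.5% were called in that comparison, 10.5% higher and 11% lower. Against NG2 cells, soft tissue sarcoma had 4 calls, 1 higher (Chrna1) and 3 lower (Pax7, Myf5 and Cdh15), against 19.3% of all tested genes (9.89% higher and 9.4% lower). In soft tissue sarcoma against osteosarcoma edgeR's test called 0 of the 8, against 0.142% of all tested genes (0.0841% higher and 0.0578% lower). Of the 8, 2 had an unadjusted p under 0.05, beside 3022 of the 19024 tested genes. DESeq2 called 2 of the 8, Cdh15 and Megf10, and 1925 genes in all. The median log2 fold change of the 8 was 1.72, -4.98 and -4.15 in the 3 comparisons in this order, beside 0.04, 0.00 and -0.03 over all tested genes. The medians of the 8 include fitted values of groups with at most 3 counts, which are no bounds. The last also includes Pax7, fitted at 0 with no counts in either tumour type. Pax3 and Myf6 did not pass the filter. Genes that pass through the group where they are high are bound to differ, so these counts of calls are descriptions. Statements below that groups did not overlap are descriptions too, as the share of all genes in such an order was not counted. Leaving out either NG2 cell library left 1 call in osteosarcoma, Cdh15. For soft tissue sarcoma, leaving out either of its own libraries left 0 calls in the whole table by edgeR, with 4510 and 4286 genes at an unadjusted p under 0.05, and leaving out NG2 replicate 1 or 2 left 1 member (Cdh15) and 0 members, with 5 members at an unadjusted p under 0.05 each time.

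**Figure D1:**
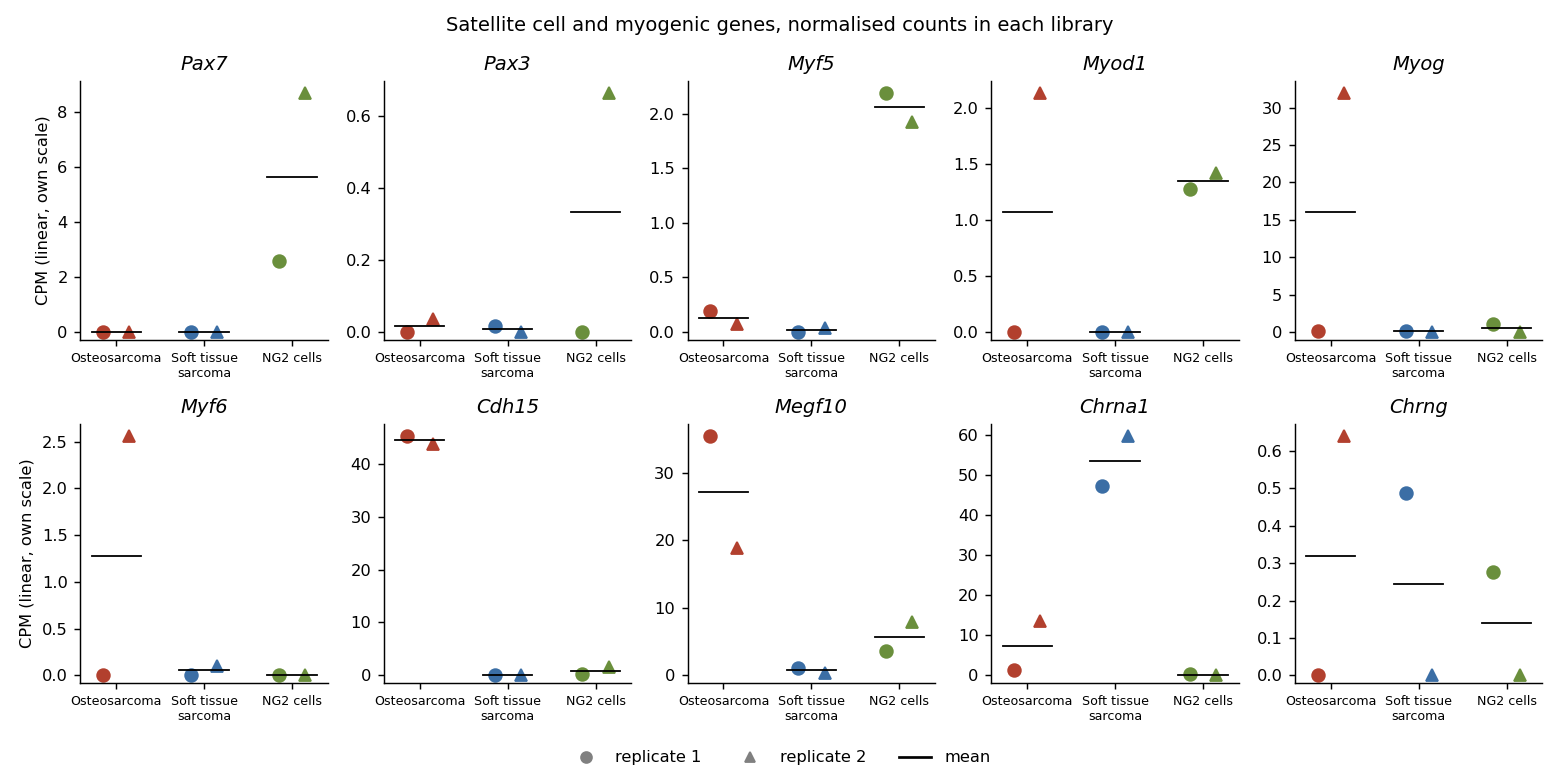
Normalised counts (CPM, linear axes that differ between panels) of the 10 genes, 1 panel per gene, with osteosarcoma, soft tissue sarcoma and NG2 cells from left to right; circles are replicate 1, triangles replicate 2 and bars the mean of both. Pax7 is at 0 in all 4 tumours, Cdh15 is at 45.3 and 43.8 CPM in osteosarcoma and 0 in soft tissue sarcoma, and Chrna1 is at 47.2 and 59.8 CPM in soft tissue sarcoma.

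Pax7 had 0 counts in the 2 osteosarcomas and 0 in the 2 soft tissue sarcomas, against 93 and 379 counts (2.58 and 8.69 CPM) in NG2 cells. Every tumour library was thus below both NG2 cell libraries, which themselves differed by 3.37-fold. Taking 3 counts per group instead of 0, Pax7 fell by at least 152-fold in osteosarcoma (adjusted p = 0.0272, edgeR), and the fall in soft tissue sarcoma was at least 168-fold (adjusted p = 0.0291). Both calls were lost when single libraries were left out. In osteosarcoma the adjusted p was 0.0610 without NG2 replicate 1 and 0.107 without NG2 replicate 2; in soft tissue sarcoma it was 0.0675 and 0.113 without these, and 0.126 and 0.128 without soft tissue sarcoma replicate 1 or 2. DESeq2 did not call Pax7 in either comparison (adjusted p = 0.0800 and 0.0821). In bulk RNA, fewer cells of a type and less RNA per cell cannot be told apart.

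Pax3 counted 0 and 1 in osteosarcoma, 1 and 0 in soft tissue sarcoma, and 0 and 29 in NG2 cells, where the 29 counts of replicate 2 were 0.665 CPM. It was therefore near the detection limit in 5 of the 6 libraries. Summed over a group, the ratio of NG2 cells to osteosarcoma was 29.4 (95% exact interval 4.88 to 1202) and to soft tissue sarcoma 32.5 (5.39 to 1327), intervals that cover counting error only. Markers of Schwann and neural crest cells, another source of Pax3, moved with the groups. In osteosarcoma 3 of the 9 tested of 11 fell and 1 rose, and in soft tissue sarcoma 5 fell and 1 rose. Their summed level was 44.3 and 74.6 CPM in osteosarcoma, 258 and 78.5 CPM in soft tissue sarcoma, and 244 and 309 CPM in NG2 cells. Sox10 and Foxd3 were at 0 in both soft tissue sarcomas and Dct was at 0 in every library. Of 10 leukocyte markers, 8 fell and 1 rose in osteosarcoma, and 7 fell and 1 rose in soft tissue sarcoma; 2 of 6 endothelial markers fell in each. The part of these markers in the Pax7 and Pax3 values was not tested.

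Myf5, the first myogenic regulatory factor to appear in the embryo, had 10 and 2 counts (0.190 and 0.0711 CPM) in osteosarcoma, 0 and 1 in soft tissue sarcoma, and 79 and 84 (2.19 and 1.93 CPM) in NG2 cells. The NG2 cell libraries were close to each other and above all 4 tumours. Myf5 fell in soft tissue sarcoma, with a log2 fold change of -7.00 ± 1.55 (SE, adjusted p = 0.0320, edgeR); from the counts the ratio of NG2 cells to soft tissue sarcoma was 183 (95% exact interval 32.3 to 7254). This call was lost without any 1 of 4 libraries, with adjusted p of 0.0942 and 0.0946 without NG2 replicate 1 or 2 and 0.176 and 0.126 without soft tissue sarcoma replicate 1 or 2. In osteosarcoma the log2 fold change was -3.91 ± 1.26 and did not pass (adjusted p = 0.0734, edgeR); DESeq2 called it (adjusted p = 0.00743).

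Myod1, the factor that can convert fibroblasts to muscle, had 0 and 60 counts (2.13 CPM) in osteosarcoma, 0 and 0 in soft tissue sarcoma, and 46 and 62 (1.27 and 1.42 CPM) in NG2 cells. The 60 counts in osteosarcoma were all from the lumbar spine tumour, whose level was above both NG2 cell libraries, and the tibia tumour was below both. Neither comparison with NG2 cells passed (adjusted p = 0.919 in osteosarcoma and 0.125 in soft tissue sarcoma, edgeR). The level in soft tissue sarcoma was at least 40.1-fold below NG2 cells when the 0 was set to 3 counts. There Myod1 was called by DESeq2 (adjusted p = 0.0200), with the 2 groups fitted alone (0.0189) and without osteosarcoma replicate 1 (0.0236) or 2 (0.0325). Myf5, on the same scale, was at 0.190 and 0.0711 CPM in the tibia and spine osteosarcoma. These levels rest on 10 and 2 counts, too few to rank the 2 tumours for Myf5.

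Myog, the differentiation factor, had 5 counts in the tibia osteosarcoma and 899 (32.0 CPM) in the spine osteosarcoma, against 9 and 1 in soft tissue sarcoma and 40 and 0 in NG2 cells. The 2 osteosarcomas differed by 337-fold, and the other 5 libraries lay between 0 and 1.11 CPM. No comparison of Myog passed: the log2 fold change was 4.86 ± 2.71 in osteosarcoma against NG2 cells (adjusted p = 0.234, edgeR), -2.43 ± 2.63 in soft tissue sarcoma against NG2 cells (adjusted p = 0.536) and -7.28 ± 3.08 in soft tissue sarcoma against osteosarcoma (adjusted p = 0.328). Myf6 was likewise high in the spine tumour alone, with 0 and 72 counts (2.56 CPM) in osteosarcoma, 0 and 3 in soft tissue sarcoma and 0 and 0 in NG2 cells. Its level in osteosarcoma was at least 34.0-fold that of NG2 cells with the 0 set to 3 counts, all of it from the spine tumour.

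Transcripts of differentiated muscle stood in the same library. The summed level of 15 adult fibre genes, without Eno3, an enolase gene not limited to muscle, was 16.1 CPM in the tibia and 1101 CPM in the spine osteosarcoma, 51.7 and 10.2 CPM in soft tissue sarcoma, and 98.1 and 81.6 CPM in NG2 cells. Eno3 itself was at 121 and 42.6, 19.2 and 9.50, and 24.7 and 29.0 CPM in the same order. Acta1, the skeletal alpha actin, was at 3.77 and 859 CPM in osteosarcoma, 35.4 and 2.59 CPM in soft tissue sarcoma and 65.2 and 49.6 CPM in NG2 cells. The early and embryonic sarcomere list summed to 16.2 and 484, 39.1 and 24.5, and 72.0 and 81.2 CPM, and none of its 14 genes was at 0 in the spine osteosarcoma. Embryonic myosin Myh3 was at 0.0190 and 3.56 CPM in osteosarcoma and at 0 in the other 4 libraries. Myog is expressed in differentiating myocytes and in fibres, and the part of muscle at the site of the spine tumour in these values was not tested. NG2 replicate 2 had 0 Myog counts at a fibre sum of 81.6 CPM, and NG2 replicate 1 had 40 at 98.1 CPM.

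**Figure D2:**
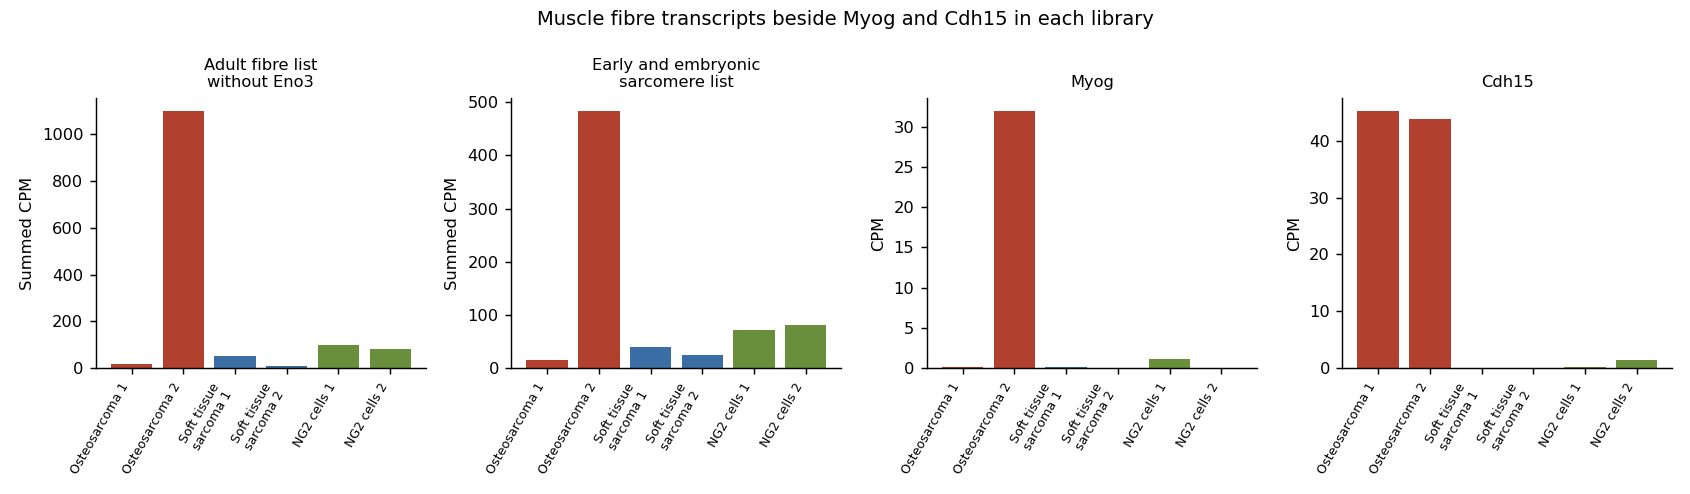
Bars give, for each of the 6 libraries, the summed CPM of the adult fibre list without Eno3 and of the early and embryonic sarcomere list, and the CPM of Myog and of Cdh15, on linear axes that start at 0. Osteosarcoma replicate 2 (lumbar spine) stands out with a fibre sum of 1101 CPM and Myog at 32.0 CPM, while Cdh15 is at 45.3 and 43.8 CPM in the osteosarcomas with fibre sums of 16.1 and 1101 CPM.

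Cdh15, M-cadherin, had 2388 and 1232 counts (45.3 and 43.8 CPM) in osteosarcoma, 0 and 0 in soft tissue sarcoma, and 9 and 66 (0.249 and 1.51 CPM) in NG2 cells. The osteosarcomas were both far above the NG2 cells and alike, with a mean of 44.5 ± 1.03 CPM (SD, n = 2), and the soft tissue sarcomas were both below. Against NG2 cells Cdh15 rose in osteosarcoma by 5.64 ± 0.98 on the log2 scale, or 49.99-fold (adjusted p = 0.0221, edgeR). It stayed called under every alternative, with adjusted p of 0.0291 to 0.0417 when a library was left out; the log2 fold change was 4.87 without NG2 replicate 1 and 7.47 without NG2 replicate 2. Its fall in soft tissue sarcoma was at least 26.2-fold (adjusted p = 0.0319), a call lost without NG2 replicate 2 (adjusted p = 0.0545) or without soft tissue sarcoma replicate 1 or 2 (0.143 and 0.128). The level in soft tissue sarcoma was at least 1325-fold below osteosarcoma, but with an unadjusted p of 0.000333 the adjusted p was 0.0666 and did not pass; DESeq2 gave 1.01e-12, and edgeR 0.00718 with no filter on low counts and 0.0498 without osteosarcoma replicate 2.

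Cdh15 was high in the tibia osteosarcoma, where Pax7, Myod1 and Myf6 had 0 counts, Myog 5 and Myf5 10, and where the fibre genes summed to 16.1 CPM. Its level there was as large as in the spine tumour, which held 60 counts of Myod1, 899 of Myog and 72 of Myf6. Osteoblast markers were also high in osteosarcoma: against NG2 cells 7 of 7 rose there, with 1 higher and 1 lower of 7 in soft tissue sarcoma. They summed to 35025 and 38682 CPM in osteosarcoma, 2439 and 1840 CPM in soft tissue sarcoma and 96.3 and 104 CPM in NG2 cells. In soft tissue sarcoma, where Cdh15 was at 0, their sum was above that of NG2 cells, but most of it was Col1a1, at 2389 and 1779 CPM. Runx2 was at 45.4 and 57.6 CPM there, Alpl at 2.18 and 1.72 CPM and Dmp1 at 1.33 and 0.607 CPM. Ibsp was at 0.956 and 1.35 CPM, Bglap at 0.168 and 0.101 CPM, and Sp7 at 0 in both. The sum in soft tissue sarcoma thus mainly followed Col1a1. The part of the osteoblast markers in the Cdh15 value was not tested.

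Megf10 had 1870 and 531 counts (35.4 and 18.9 CPM) in osteosarcoma, 67 and 9 counts (1.12 and 0.303 CPM) in soft tissue sarcoma and 127 and 342 (3.52 and 7.84 CPM) in NG2 cells. The groups did not overlap: both osteosarcomas were above, and both soft tissue sarcomas below, the NG2 cells. None of the 3 differences passed by edgeR's test, while DESeq2 called all 3. The log2 fold change was 2.26 ± 0.78 in osteosarcoma against NG2 cells (adjusted p = 0.0858, edgeR), -2.96 ± 0.81 in soft tissue sarcoma against NG2 cells (adjusted p = 0.0527) and -5.21 ± 0.89, or 37.1-fold, in soft tissue sarcoma against osteosarcoma (adjusted p = 0.0887). DESeq2 gave adjusted p of 0.0167, 0.00111 and 8.07e-09 in the same order. With no filter on low counts edgeR called soft tissue sarcoma against NG2 cells (0.0353) and against osteosarcoma (0.0230), and it called the first of these also with RLE scaling (0.0492) and without osteosarcoma replicate 2 (0.0490). As with Cdh15, its level in the tibia osteosarcoma was not below that in the spine osteosarcoma, whose fibre transcripts were higher. The part of muscle at the site of the spine tumour in the Megf10 value was not tested.

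Chrna1, the receptor's alpha subunit, had 66 and 378 counts (1.25 and 13.4 CPM) in osteosarcoma, 2816 and 1775 counts (47.2 and 59.8 CPM) in soft tissue sarcoma and 8 and 0 (0.222 and 0 CPM) in NG2 cells. The 3 groups did not overlap, with the soft tissue sarcomas highest and the NG2 cells lowest. Chrna1 rose in soft tissue sarcoma by 8.95 ± 1.78 on the log2 scale, or 495-fold (adjusted p = 0.0245, edgeR), against the 8 counts of the NG2 cells. The call was lost without any 1 of 4 libraries: the adjusted p was 0.0668 and 0.0913 without NG2 replicate 1 or 2 and 0.105 and 0.121 without soft tissue sarcoma replicate 1 or 2, with log2 fold changes of 7.91 to 14.17 when a library was left out. In osteosarcoma the rise was 6.08 ± 1.62, or 67.7-fold (adjusted p = 0.0462). It was lost without NG2 replicate 1 (adjusted p = 0.0848) or 2 (0.148), without the spine osteosarcoma (log2 fold change 3.57, adjusted p = 0.0815), without soft tissue sarcoma replicate 1 or 2 (0.0999 and 0.104), and when the 2 groups were fitted alone (0.117). Soft tissue sarcoma against osteosarcoma gave 2.87 ± 1.29 (adjusted p = 0.356).

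Beside Chrna1, other members were low in the soft tissue sarcomas. Myod1, Pax7 and Cdh15 were at 0 there, Myog had 9 and 1 counts and the fibre genes summed to 51.7 and 10.2 CPM. Chrng, the fetal partner subunit whose promoter window has the same numbers of E-boxes as that of Chrna1, had 0 and 18 counts in osteosarcoma, 29 and 0 in soft tissue sarcoma and 10 and 0 in NG2 cells. Each group thus had a library at 0, the groups overlapped, and no comparison passed (adjusted p of 0.775, 0.836 and 0.983, edgeR). Fibroblast and adventitial markers summed to 2837 and 1143 CPM in osteosarcoma, 3298 and 2581 CPM in soft tissue sarcoma and 1495 and 928 CPM in NG2 cells. By edgeR's test 0 of those 8 markers passed between soft tissue sarcoma and NG2 cells. Of the 8, 2 had an unadjusted p under 0.05, beside 7125 of the 19024 tested genes. DESeq2 called 2 of the 8, and 6506 genes in all. The part of those markers in the Chrna1 value was not tested.

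The other 10 genes of the endplate list, the remaining receptor subunits and the proteins that cluster the receptor under the nerve, are given beside Chrna1. Against NG2 cells, 0 of 10 rose and 1 fell in soft tissue sarcoma, Colq, the collagen tail of acetylcholinesterase; 4 had an unadjusted p under 0.05 and DESeq2 called 1 higher and 3 lower. In osteosarcoma 1 of 10 rose, Lrp4, the agrin receptor, and 0 fell (DESeq2 called 3 higher and 1 lower). The edgeR shares are near those over all tested genes. Those were 9.89% higher and 9.4% lower in soft tissue sarcoma and 10.5% higher and 11% lower in osteosarcoma. Over all 19024 tested genes, 7125 had an unadjusted p under 0.05 in soft tissue sarcoma. DESeq2 called 3182 genes higher and 3324 lower there, and 3382 higher and 3584 lower in osteosarcoma. Chrnb1, the beta subunit, was at 1.21 and 4.30 CPM in osteosarcoma, 8.05 and 19.7 CPM in soft tissue sarcoma and 15.3 and 24.6 CPM in NG2 cells, and its soft tissue sarcoma and NG2 cell libraries overlapped (log2 fold change -0.53 ± 0.75, adjusted p = 0.644). Chrnd, the delta subunit, was at or under 1.21 CPM in every library, and Chrne at or under 0.818 CPM. Musk, the kinase that agrin activates through Lrp4, was at 0.322 and 2.60 CPM in osteosarcoma, 28.3 and 39.5 CPM in soft tissue sarcoma and 11.3 and 1.31 CPM in NG2 cells. The soft tissue sarcomas were thus highest for Musk as for Chrna1, without passing (2.42 ± 1.25 against NG2 cells, adjusted p = 0.211; 4.56 ± 1.38 against osteosarcoma, adjusted p = 0.207). Rapsn, which clusters the receptor, was at 4.07 and 10.2, 9.73 and 6.94, and 1.5 and 1.93 CPM, with both tumour groups above NG2 cells (adjusted p = 0.0734 in osteosarcoma and 0.0613 in soft tissue sarcoma).

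Lrp4 was at 25.4 and 211 CPM in osteosarcoma, 3.46 and 5.42 CPM in soft tissue sarcoma and 2.44 and 3.83 CPM in NG2 cells. Its rise in osteosarcoma was 5.23 ± 1.07 (adjusted p = 0.0240, edgeR), with the spine tumour far above the tibia tumour. Leaving out either NG2 cell or either soft tissue sarcoma library ended that call, with adjusted p up to 0.116. Colq had 11.4 and 17.6 CPM in osteosarcoma, 0 and 0 in soft tissue sarcoma and 3.88 and 0.413 CPM in NG2 cells. It fell in soft tissue sarcoma by at least 63.9-fold (adjusted p = 0.0341), and the call was lost without NG2 replicate 1 or either soft tissue sarcoma library, with adjusted p up to 0.148. Between soft tissue sarcoma and osteosarcoma edgeR called 0 of the 10 (6 at an unadjusted p under 0.05, 5 called by DESeq2). Over all 19024 tested genes 3022 had an unadjusted p under 0.05 there, and DESeq2 called 1925 genes in all.

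**Figure D3:**
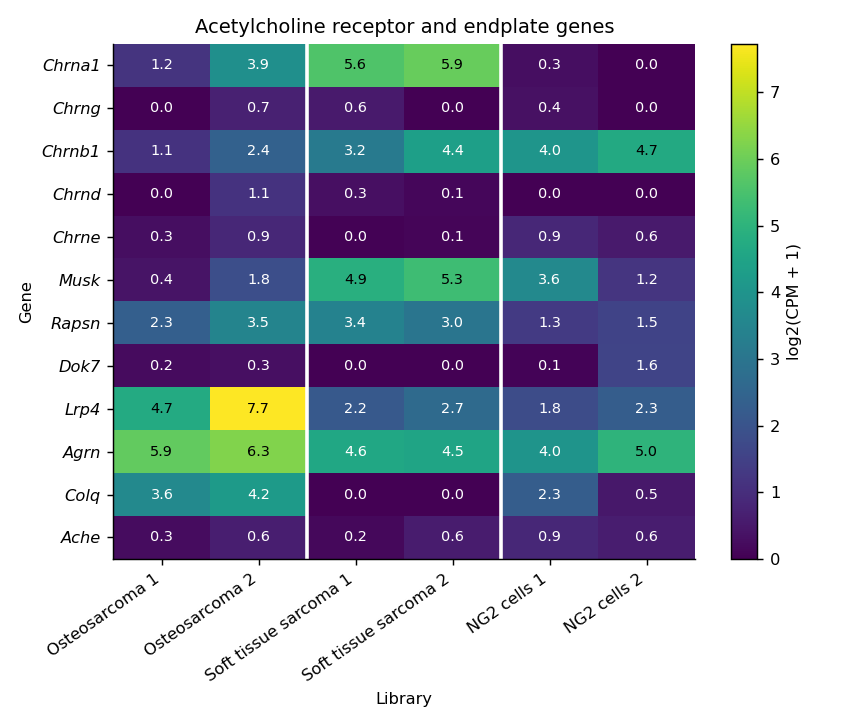
Heat map of log2(CPM + 1), printed in each cell, for Chrna1, Chrng and the 10 endplate genes (rows) in the 6 libraries (columns, osteosarcoma, soft tissue sarcoma and NG2 cells from left to right); levels are not corrected for length, so they compare along a row only. Chrna1 and Musk are highest in the 2 soft tissue sarcomas, at 47.2 and 59.8 CPM and at 28.3 and 39.5 CPM, while Chrnd and Chrne lie at or under 1.21 CPM in every library.

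**Figure D4:**
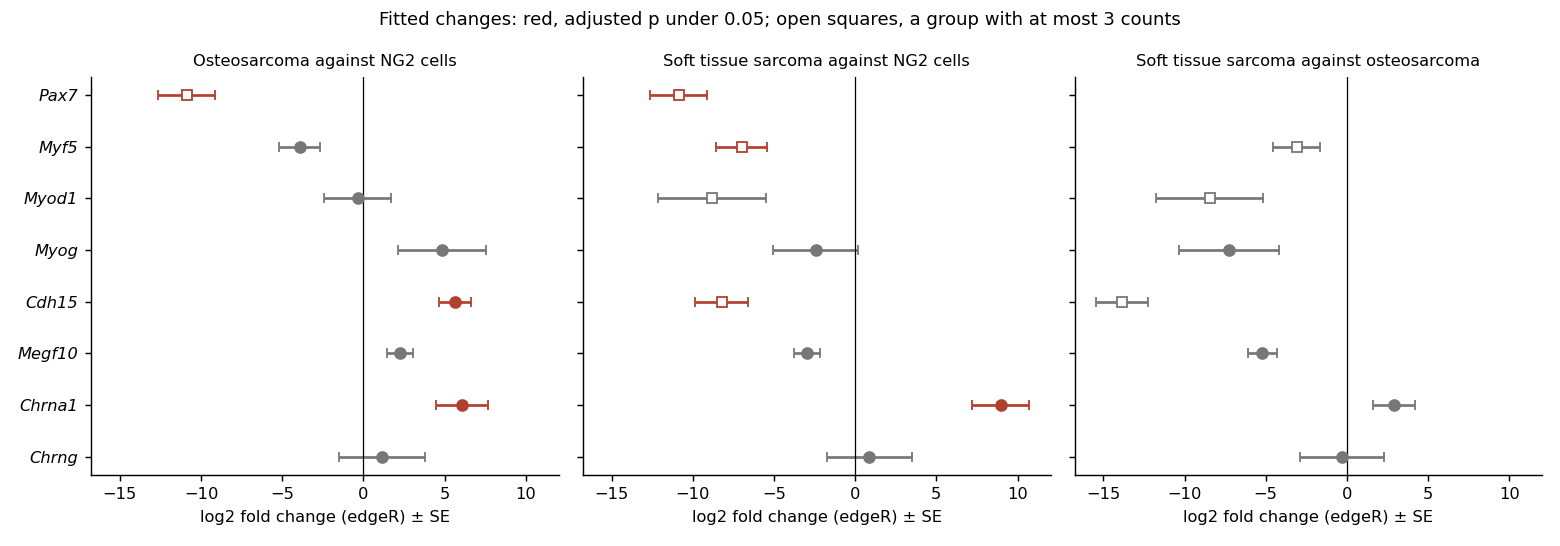
Fitted log2 fold change with its SE (horizontal axis) for the 8 genes that passed the filter, 1 panel per comparison; red marks an adjusted p under 0.05, and open squares a comparison in which a group held at most 3 counts, where the fitted size is no bound. Chrna1 is above 0 in both tumour types, Cdh15 above 0 in osteosarcoma and below 0 in soft tissue sarcoma, and Myog and Chrng have standard errors of 2.57 to 3.08.

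To rank the genes within a group, CPM was divided by the exon length in kilobases (CPM per kb). In osteosarcoma the highest means were Cdh15 at 13.7, with libraries at 13.5 and 13.9, and Myog at 10.7, with libraries at 0.0634 and 21.4. Megf10 (3.52), Chrna1 (1.67), Myf6 (1.01) and Myod1 (0.573) came next, and Chrng, Myf5, Pax3 and Pax7 were under 0.1. Neighbours in that order overlapped, except Myf5 above Pax3. Chrna1 at 12.2 CPM per kb in soft tissue sarcoma (10.8 and 13.6) was clear of all others, the next being Megf10 at 0.0925. In NG2 cells the order was Myf5 at 0.988 CPM per kb (0.924 and 1.05), Pax7 at 0.961 (0.440 and 1.48), Megf10 at 0.736, Myod1 at 0.724, Myog at 0.371 and Cdh15 at 0.271, with every neighbour in the order overlapping. Pax3, Chrng, Chrna1 and Myf6 were under 0.1 CPM per kb in NG2 cells. The Myf5, Pax7, Megf10 and Myod1 means of the NG2 cells thus lay within a narrow range, while each tumour type was led by a gene at or under 0.271 CPM per kb in NG2 cells.

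**Figure D5:**
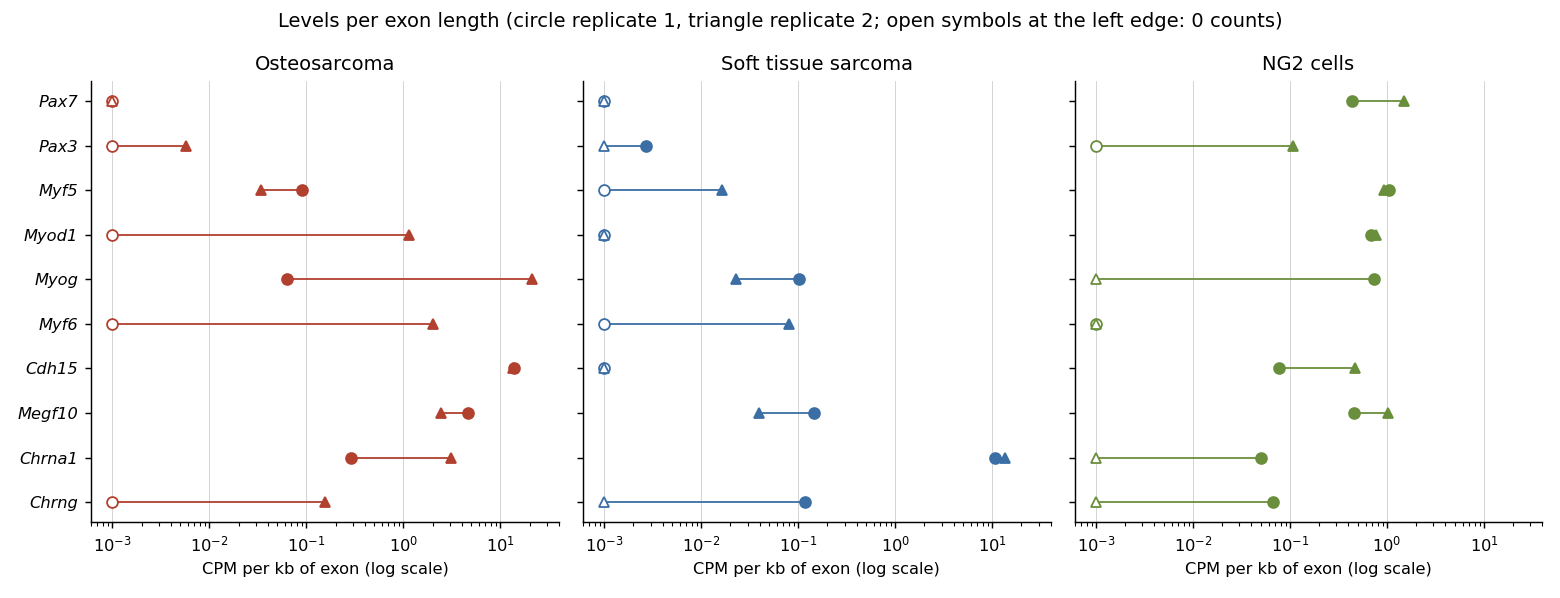
Level of the 10 genes in CPM per kb of exon on a log axis, 1 panel per group, with replicate 1 as a circle and replicate 2 as a triangle joined by a line; open symbols at the left edge are libraries with 0 counts. Cdh15 has the highest mean in osteosarcoma at 13.7, Chrna1 in soft tissue sarcoma at 12.2 and Myf5 in NG2 cells at 0.988 CPM per kb.

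Lists of the wider pathway gave the surroundings of these genes. Over all tested genes 21.5% were called in osteosarcoma and 19.3% in soft tissue sarcoma against NG2 cells; the lists' counts are descriptions to be read beside these shares, and no list was tested as a whole. Among inhibitors of the myogenic regulatory factors, 5 of 12 rose and 1 fell in osteosarcoma (median log2 fold change 1.54), and 3 rose and 2 fell in soft tissue sarcoma (median 0.04). Twist1, which blocks Myod1 in myoblasts, was at 31.2 and 19.8 CPM in osteosarcoma, 24.4 and 22.2 CPM in soft tissue sarcoma and 0.499 and 0.298 CPM in NG2 cells. The rise was 6.0 ± 0.54 on the log2 scale in osteosarcoma (adjusted p = 0.00521, edgeR) and 5.87 ± 0.53 in soft tissue sarcoma (adjusted p = 0.00806). Its relative Twist2 was at 24.5 and 20.1 CPM in soft tissue sarcoma, 0.0569 and 0.142 CPM in osteosarcoma, with 0.0277 and 0 CPM in NG2 cells, and rose in soft tissue sarcoma (adjusted p = 0.00863; ratio to the 1 count of NG2 cells 1837, 95% exact interval 329 to 72577). Id2, which binds E proteins and keeps them from Myod1, fell by 2.62 ± 0.43 in osteosarcoma (adjusted p = 0.0149), and in soft tissue sarcoma it fell by 1.97 ± 0.42 (adjusted p = 0.0294). Snai2 rose by 2.62 ± 0.49 in osteosarcoma (adjusted p = 0.0200). Snai1 rose by 1.99 ± 0.40 in soft tissue sarcoma (adjusted p = 0.0251). Mdfi, which holds the myogenic factors in the cytoplasm, was at 2.37 and 3.38 CPM in osteosarcoma and 0 in NG2 cells, at least 76.3-fold higher (adjusted p = 0.0207).

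Of 12 tested partners of the myogenic factors (of 13 listed), 2 rose and 1 fell in osteosarcoma, and 1 rose and 2 fell in soft tissue sarcoma, near the shares over all tested genes, with medians of 0.12 and -0.07. The homeodomain factor Six4 rose in both, by 5.31 ± 1.43 in osteosarcoma (adjusted p = 0.0480, edgeR) and 6.13 ± 1.48 in soft tissue sarcoma (adjusted p = 0.0389). The coactivator Eya1 fell in soft tissue sarcoma by 5.94 ± 1.14 (adjusted p = 0.0229), as did Mef2c by 2.96 ± 0.64 (adjusted p = 0.0303), and Mef2d fell in osteosarcoma by 1.35 ± 0.27 (adjusted p = 0.0228). Mef2c is also a gene of lymphocytes and endothelium. In soft tissue sarcoma 7 of 10 leukocyte markers fell and 1 rose, and 2 of 6 endothelial markers fell, beside 9.4% of all tested genes lower. The part of those cells in the Mef2c value was not tested.

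Of 19 tested genes of the satellite cell surface and of quiescence (of 20 listed), 3 rose and 5 fell in osteosarcoma (median -0.70), and 1 rose and 4 fell in soft tissue sarcoma (median -1.05). Chodl, chondrolectin, was like Pax7 at 0 in all 4 tumours. In NG2 cells it was at 16.6 and 10.0 CPM, where Pax7 had the opposite order (2.58 and 8.69 CPM). Chodl was at least 359-fold lower in osteosarcoma (adjusted p = 0.0129, edgeR) and at least 396-fold lower in soft tissue sarcoma (adjusted p = 0.0145). Cxcr4, a chemokine receptor of satellite cells and of leukocytes, was at 3.96 and 5.48 CPM in osteosarcoma, 14.1 and 10.8 CPM in soft tissue sarcoma and 192 and 160 CPM in NG2 cells. It fell by 5.22 ± 0.36 in osteosarcoma (adjusted p = 0.00419), and in soft tissue sarcoma it fell by 3.82 ± 0.34 (adjusted p = 0.00740). Fgfr1 rose in both, by 2.79 ± 0.38 in osteosarcoma (adjusted p = 0.00960) and 3.64 ± 0.40 in soft tissue sarcoma (adjusted p = 0.00865). Sdc3 rose by 2.80 ± 0.39 in osteosarcoma (adjusted p = 0.00995), and the Notch target Hes1 fell by 1.66 ± 0.27 in soft tissue sarcoma (adjusted p = 0.0162).

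Vcam1, an adhesion receptor of satellite cells, was the only pathway gene called between the tumour types. It was at 155 and 166 CPM in soft tissue sarcoma, 21.8 and 25.4 CPM in osteosarcoma, with 73.1 and 93.4 CPM in NG2 cells, so the 3 groups did not overlap. It rose by 2.77 ± 0.28 in soft tissue sarcoma against osteosarcoma (adjusted p = 0.0459, edgeR) and fell by 1.82 ± 0.27 in osteosarcoma against NG2 cells (adjusted p = 0.0112). The call between the tumour types was lost without any of 5 libraries, all but osteosarcoma replicate 2, with adjusted p up to 0.273, and when the 2 groups were fitted alone.

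Of 11 tested genes of myoblast fusion (of 14 listed), 5 rose and 1 fell in osteosarcoma (median 1.99), and 4 rose and 1 fell in soft tissue sarcoma (median 0.93). The fusogen genes Mymk and Mymx were not among them: Mymk was at 0 and 1.03 CPM in osteosarcoma, 0.268 and 0 CPM in soft tissue sarcoma and 0 in NG2 cells. Mymx was at 0 and 0.889, 0 and 0.101, and 0 and 0 CPM in that order. The genes that rose encode surface and membrane proteins that many cells other than muscle express. Kirrel rose by 4.79 ± 0.53 in osteosarcoma (adjusted p = 0.00674, edgeR) and 4.67 ± 0.53 in soft tissue sarcoma (adjusted p = 0.00902). Myof, myoferlin, rose by 1.99 ± 0.35 in osteosarcoma (adjusted p = 0.0171) and 3.86 ± 0.38 in soft tissue sarcoma (adjusted p = 0.00846). Cdh2, N-cadherin, rose by 4.89 ± 0.77 in osteosarcoma (adjusted p = 0.0132), and the cell surface protein Boc by 4.34 ± 0.79 in osteosarcoma (adjusted p = 0.0188) and 3.57 ± 0.77 in soft tissue sarcoma (adjusted p = 0.0296). Jam2 fell by 5.35 ± 0.88 in soft tissue sarcoma (adjusted p = 0.0162, edgeR). It is also an endothelial gene, and 2 of 6 endothelial markers fell there, beside 9.4% of all tested genes. The part of endothelial cells in the Jam2 value was not tested.

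The lists of structural genes held no calls by edgeR in the comparisons with NG2 cells. Over all 19024 tested genes, 7431 in osteosarcoma and 7125 in soft tissue sarcoma had an unadjusted p under 0.05. DESeq2 called 6966 and 6506 genes in all. Of 15 tested adult fibre genes, 1 in osteosarcoma and 2 in soft tissue sarcoma had an unadjusted p under 0.05, and DESeq2 called 2 and 1. Of 11 tested early and embryonic sarcomere genes, 3 and 2 had an unadjusted p under 0.05, and DESeq2 called 5 and 2. Of 7 tested genes of premyogenic and migrating progenitors, 2 and 2 had an unadjusted p under 0.05, and DESeq2 called 1 and 2. Of the 38 calls of the pathway genes named here, 7 held under every alternative, all in osteosarcoma against NG2 cells: Cdh2, Cxcr4, Fgfr1, Kirrel, Sdc3, Twist1 and Vcam1. In that comparison Boc, Lrp4, Mdfi, Hes1 and Jam2 were lost without NG2 replicate 1 or 2 (Lrp4 and Hes1 also without either soft tissue sarcoma, Jam2 also without osteosarcoma replicate 2), Snai1 without any library, Chodl without NG2 replicate 1, Id2 without NG2 replicate 2, Myof and Snai2 without NG2 replicate 1 or either soft tissue sarcoma, Mef2d without any but osteosarcoma replicate 2, and Six4 without either osteosarcoma or either soft tissue sarcoma. Every call of soft tissue sarcoma against NG2 cells was lost without either soft tissue sarcoma library; those of Boc, Chodl, Eya1, Hes1, Id2, Jam2, Mef2c and Snai1 were also lost without NG2 replicate 1 or 2, and those of Colq and Cdh2 without NG2 replicate 1.

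Among 14920 protein-coding genes, the 3 whose log2(CPM + 1) correlated best with each gene over the 6 libraries were listed as a description; the 6 points share their 3 groups, so many genes reach high values. For Pax7 they were Ptgds, Gm3336 and Crtac1, all at 0 in the 4 tumours, each with a Pearson r of 1.00. For Myf5 they were Arhgef18, Tut4 and Ythdc1 (0.999), and for Myod1 Pde8a (0.995), Xirp1 (0.991) and Midn (0.989). Myog went with Ripk4 (0.999), Celf6 (0.998) and Sln (0.997), the sarcolipin gene of muscle, which was at 0.0190 and 8.995 CPM in osteosarcoma, 0 and 0 in soft tissue sarcoma and 0.388 and 0.0229 CPM in NG2 cells. Cdh15 went with Galnt10 (0.996), Ppfia2 (0.995) and Tmie (0.994), Megf10 with Sec16a (0.993), Rdm1 (0.991) and Gpr83 (0.990), and Chrng with Adamtsl2 (0.988), Usp19 (0.985) and Actg2 (0.980). Chrna1 went with Ltc4s (1.00), Arhgdig (0.998) and Arpc1b (0.997); Arhgdig, like Chrna1, was highest in soft tissue sarcoma, at 1.34 and 1.45 CPM, against 0.190 and 0.889 CPM in osteosarcoma and 0 in NG2 cells.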

How the data were processed

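Polyadenylated RNA of 6 libraries was sequenced in pairs after oligo(dT) priming with template switching, about 10 ng of RNA and 20 PCR cycles, per the labels' protocols. The deposited values were raw counts per Ensembl gene, 1 table per library. The submitters' processing notes name cutadapt, Trim Galore, FastQC, HTSeq, STAR and DESeq2 and the builds GRCm38 and mm10; versions, strand setting and annotation release are not given in the sources used here, so reads of antisense or overlapping genes could not be separated. The reads carried no molecular identifiers, so intervals and floors cover counting error only. Reads outside annotated genes (33.2% in both NG2 cell libraries and 19.5% to 23.4% in the tumour libraries) and the other counters were left out.

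Symbols and positions came from GENCODE M21 for 36639 of 38561 IDs. Counts were tested with edgeR 4.0.16 in R 4.3.3: TMM scaling, the filter filterByExpr at its default minima (min.count 10 and min.total.count 15), a quasi-likelihood model of all 6 libraries without covariates, and Benjamini-Hochberg adjustment over 19024 genes. The common dispersion was 0.334, with 3 residual degrees of freedom. Standard errors were taken as the fold change on the log2 scale over the root of F. A group at 0 was given 3 counts for a lower bound, and a group with 1 to 3 counts a ratio with an exact 95% interval. The tests were checked on simulated counts.

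The 10 genes, 8 pathway lists and 6 marker lists were chosen with earlier results of these data known. The rule named all 10 genes, called pathway genes (at most 4 per list and comparison in order of p) and, for each gene that passed the filter, the 3 protein-coding genes most like it in log2(CPM + 1). The values of 1 pathway gene that the rule names are not reported here. Single genes of the structural, fusion and endplate lists outside this rule, Arhgdig and Sln levels were given after their values were seen. Alternatives were RLE scaling, leaving out immunoglobulin and mitochondrial genes before scaling, no filter, DESeq2 1.42.0, the 2 groups fitted alone, a replicate block, and leaving out each library in turn. Their effect on the named pathway genes was added after seeing the data. Replicate numbers did not pair the samples: same-numbered libraries deviated from their group means with correlations of 0.0827, -0.0245 and -0.113.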

Additional observations from a re-analysis of the deposited data

Results flagged for a closer look

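Cdh15 and Megf10 stood on opposite sides of the NG2 cells in the 2 tumour types, in every library. Groups held 2 libraries each, and the share of all tested genes in such an order was not counted. Cdh15 was at 45.3 and 43.8 CPM in osteosarcoma, above the 0.249 and 1.51 CPM of NG2 cells, and at 0 in both soft tissue sarcomas, below them. The test of the difference itself, soft tissue sarcoma against osteosarcoma, gave a fitted log2 fold change of -13.86, which is no bound because soft tissue sarcoma was at 0 (adjusted p = 0.0666, edgeR). Megf10 was at 35.4 and 18.9 CPM in osteosarcoma, above the 3.52 and 7.84 CPM of NG2 cells, and at 1.12 and 0.303 CPM in soft tissue sarcoma, below them, with a log2 fold change between the tumour types of -5.21 (adjusted p = 0.0887). Neither difference passed the threshold.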

How the results depend on the processing

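Of 269 alternative values of 23 fold changes of the 10 genes, 215 kept their direction and their side of the threshold, 30 lost a call, 15 gained one and 9 reversed. Every reversal came from leaving out 1 library and the cause was not tested. The log2 fold changes in osteosarcoma against NG2 cells then ranged from -8.89 to 0.66 for Myod1, -2.49 to 12.41 for Myog and -5.62 to 6.75 for Chrng. For soft tissue sarcoma against NG2 cells they ranged from -3.88 to 5.15 for Myog and -5.41 to 6.44 for Chrng, and in soft tissue sarcoma against osteosarcoma from -8.75 to 0.029 for Myog and -6.60 to 6.50 for Chrng. Where a group was left with 1 library, that library was assumed to vary like the other groups.

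The 4086 genes called in osteosarcoma against NG2 cells were 2083 with the 2 groups alone, 6966 with DESeq2 and 1278 to 3429 when a library was left out; the 3 members were 1 to 3. For soft tissue sarcoma against NG2 cells 3671 became 6506 with DESeq2 and 0 to 4694 when a library was left out, and the 4 members 0 to 6. Between soft tissue sarcoma and osteosarcoma 27 became 409 with no filter on low counts, 0 with the 2 groups alone (3073 at an unadjusted p under 0.05), 1925 with DESeq2 and 0 to 315 when a library was left out; the 0 members became 2 with no filter, 2 with DESeq2 and 0 to 1. Cdh15 could not be tested in soft tissue sarcoma and NG2 cells alone, where it did not pass the filter. RLE scaling and leaving out immunoglobulin and mitochondrial genes moved the median of all genes by less than 0.1 on the log2 scale. With the replicate block, 2660, 2209 and 8 genes were called in the 3 comparisons in this order, and 1 (Cdh15), 1 (Chrna1) and 0 members (2 at an unadjusted p under 0.05); replicate numbers share only a number here. Among the named pathway genes the block ended the calls of Six4 and Snai1 in both comparisons with NG2 cells, of Id2, Colq and Cdh2 in soft tissue sarcoma against NG2 cells, and of Vcam1 between the tumour types. Pax3 and Myf6 did not pass the filter and have no test, and Chrng had at most 29 counts in a library.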
